A study of Mus musculus with 23 samples.

Results

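The genes described here encode the proteins with which the liver makes fatty acids, assembles them into triglyceride, and stores and releases that triglyceride. They were taken by gene symbol from a list of 41 genes, all of which were found among the 65535 genes of the deposited table. That number is the row limit of an older spreadsheet format less its header, so the table may be cut short, and genes beyond it are not analysed here. The list covers the supply of acetyl-CoA and NADPH (4 genes), fatty acid synthesis (3), elongation (5), desaturation (4), regulators (3), triglyceride assembly (5), lipid droplet proteins (8), lipolysis and its cofactors (7) and fatty acid uptake (2). RNA from whole mouse livers was read by 3' end counting. The mice were CYP2E1-KO animals of the line 129/Sv-Cyp2e1tm1Gonz/J, which carry a disrupted gene for CYP2E1, a cytochrome P450 of hepatocytes, or animals of the line 129S1/SvImJ, called WT. The WT line gave 5 Female WT and 6 Male WT libraries and the KO line 6 Female KO and 6 Male KO libraries, all from co-housed mice on normal chow with no treatment named. The labels give the age as 12 to 13 weeks in one field and as 16 weeks in another, and which holds is not known here. Each genotype is a separate line, so the disrupted gene and any other difference between the lines cannot be told apart.

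In hepatocytes, citrate leaves the mitochondrion and is cleaved to acetyl-CoA, which acetyl-CoA carboxylase and fatty acid synthase turn into palmitate with NADPH as the reductant. Elongases and desaturases then lengthen and unsaturate the chain, and acyltransferases attach it to glycerol. The triglyceride is kept in droplets coated by perilipins and CIDE proteins until lipases release the fatty acids. The transcription factor SREBP-1, the product of Srebf1, drives many of the synthesis genes when insulin is high.

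Library totals ran from 1538889 to 9874733 counts, with a median of 4658677. Cyp2e1, the targeted gene, averaged 398 ± 63 (SD, n = 5) in Female WT and 476 ± 54 (SD, n = 6) in Male WT as deposited CPM, which are counts scaled to the library total. It averaged 26.3 ± 7.3 (SD, n = 6) in Female KO and 32.4 ± 13.1 (SD, n = 6) in Male KO, which fits the labels. The 6 hepatocyte markers summed to at least 59350 CPM in every library. In 22 libraries the 8 adipocyte markers summed to between 4.38 and 20.1 CPM, and in Male KO replicate 2 they summed to 131 CPM. The 4 skeletal muscle markers summed to 263 CPM in Male WT replicate 2, 168 in Male KO replicate 3 and 111 in Male KO replicate 6. In every other library they summed to at most 32.2 CPM. Male KO replicate 3 was also the shallowest library. In bulk liver, fewer cells of a type and less RNA per cell cannot be told apart.

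Of the 41 genes, 35 passed the filter on low counts and were tested together with all 11370 genes that passed it. The 6 others are described by their counts further on. None of the 35 was called between the KO and WT lines in either sex by edgeR's quasi-likelihood test at a Benjamini-Hochberg adjusted p under 0.05. Over all genes tested, 0.193% were called in females and 0.132% in males, so few genes of any kind passed this test. DESeq2 called 0 of the 35 in females, where it called 0.33% of the genes to which it gave an adjusted p. In males it gave an adjusted p to 30 of the 35 and called 0 of them, against 0.995% of the genes to which it gave one. With limma-voom and sample weights 0 of the 35 were called in either sex, against 0.431% of all genes tested for females and 6.02% for males. Before adjustment, at p under 0.05, 5 of the 35 passed in females, against 8.84% of all genes tested, and 4 passed in males, against 13.1% of all genes tested. No tested gene of the list had KO libraries that all lay above or all lay below the WT libraries, in either sex, where 1.07% of all genes tested did so in females and 0.616% in males.

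**Figure D1:**
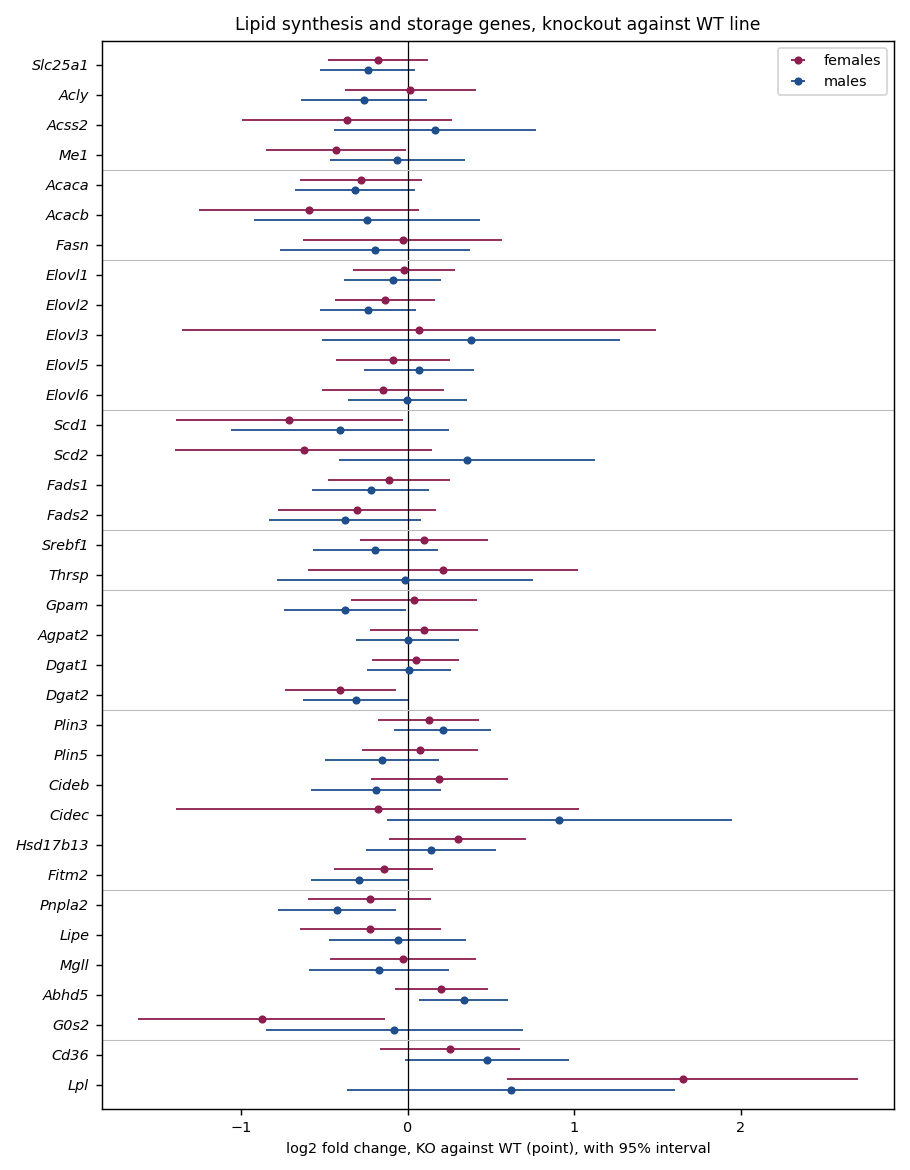
Log2 fold change of KO against WT (points, edgeR) with its 95% interval (bars, not adjusted over genes) for the 35 tested genes, in females and in males, with grey lines between functional groups. Most intervals span 0, the female Lpl interval of 0.60 to 2.71 lies farthest from it, and none of the 35 genes passed the adjusted threshold.

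The size of the differences that remain possible varied between genes. In females the 95% interval of the KO against WT difference, not adjusted over genes, lay within 2-fold in both directions for 27 of the 35 genes and within 1.5-fold for 16. In males it lay within 2-fold for 30 genes and within 1.5-fold for 16. The genes whose intervals reached past 2-fold in both sexes were Elovl3, Scd1, Scd2, Cidec and Lpl. The median log2 difference of the 35 genes was -0.09 in females and -0.09 in males, against 0.01 and 0.04 over all genes tested. Point estimates lay below 0 for 21 of the 35 genes in females, where 48.3% of all genes tested did, and for 23 of the 35 in males, where 44.1% did.

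The first steps supply carbon and reducing power. Slc25a1, the mitochondrial citrate carrier, averaged 337 ± 58 CPM (SD, n = 5) in WT females and 290 ± 26 (SD, n = 6) in KO females. Acly, the ATP citrate lyase that cleaves citrate, averaged 98.7 ± 19.2 (SD, n = 5) and 96.9 ± 20.9 CPM (SD, n = 6) in the same groups. Neither was called, and their female log2 differences were -0.18 (SE 0.15) and 0.02 (SE 0.19). Acss2, which makes acetyl-CoA from acetate, varied widely within groups, from 126 to 411 CPM in Female WT and from 61.1 to 353 in Male KO. Me1, the cytosolic malic enzyme that yields NADPH, measured 93.1, 81.0, 105, 98.3 and 51.8 CPM in the 5 Female WT libraries. In Female KO, Me1 ran from 45.8 through a median of 58.4 to 88.1 CPM. Most Female WT values of Me1 lay above most Female KO values, but the groups overlapped. The Me1 log2 difference was -0.43 (SE 0.20) in females, with an unadjusted p of 0.0456 and an edgeR adjusted p of 0.553, and it was -0.06 (SE 0.20) in males.

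The committed steps of synthesis showed no called difference between lines. Acaca and Acacb encode the cytosolic and the mitochondrial-surface acetyl-CoA carboxylase, and Fasn encodes fatty acid synthase. Fasn measured 548, 541, 624, 330 and 271 CPM in Female WT and ran from 295 through a median of 328 to 858 in Female KO. In Male WT Fasn ran from 244 through 357 to 563 CPM, and in Male KO from 149 through 295 to 472. Fasn values were widely spread within every group, and all groups overlapped. The Fasn log2 difference was -0.03 (95% interval -0.63 to 0.57) in females and -0.20 (95% interval -0.77 to 0.37) in males. Acaca differed by -0.28 (SE 0.18) in females and -0.32 (SE 0.18) in males. Acacb differed by -0.59 (SE 0.32) and -0.25 (SE 0.33), and was not called in either sex.

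Of the 16 genes compared with Srebf1 across libraries further on, Fasn had the highest correlation, so its promoter is shown. The RefSeq promoter table, on build GRCm38.p6, held an entry for 33 of the 41 genes, from 250 bases before to 50 bases after the start. The Fasn entry is chr11:120824498-120824797 on the minus strand, with matches to the CCAAT box in capitals on either strand:
Fasn promoter: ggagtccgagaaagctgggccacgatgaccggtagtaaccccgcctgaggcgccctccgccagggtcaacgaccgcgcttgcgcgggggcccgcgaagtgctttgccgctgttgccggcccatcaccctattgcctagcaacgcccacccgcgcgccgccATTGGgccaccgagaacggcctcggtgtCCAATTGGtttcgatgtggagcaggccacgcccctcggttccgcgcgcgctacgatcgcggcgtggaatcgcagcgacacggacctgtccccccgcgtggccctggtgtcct
The capitals start at bases 161 and 189, and the second stretch holds overlapping matches, at 189 and 192, on opposite strands. The letters CCAAT were present on either strand in 37.4% of the 32851 promoters in the table and in 20 of the 46 entries of the listed genes. The sterol response element letters TCACNCCAC were found in 1.24% of all promoters and in 0 of those 46, and the E-box CACGTG in 7.15% and in 4. A match of letters is a description of the sequence only. These coordinates come from RefSeq's build and not from the build of the counts.

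Among the 5 elongases, only Elovl3 was called by sex, and none was called by line. ELOVL3 lengthens saturated and monounsaturated chains and is known in mouse liver for high expression in males. In Female WT it measured 4.91, 3.39, 3.97, 3.54 and 3.29 CPM, and in Female KO it ran from 1.38 through a median of 3.96 to 5.78. In Male WT replicates 1 to 6 it measured 282, 131, 155, 50.6, 45.8 and 44.9 CPM. In Male KO replicates 1 to 6 it measured 315, 311, 140.0, 39.8, 46.1 and 55.6 CPM. Every male library lay above every female library in both lines. The Elovl3 level was 33.1-fold higher in males than in females in WT (log2 5.05, SE 0.61, edgeR adjusted p = 1.05e-06) and 41.1-fold higher in KO (log2 5.36, SE 0.57, edgeR adjusted p = 1.18e-07). Between lines it differed by 0.07 (SE 0.69) in females and 0.38 (SE 0.44) in males on the log2 scale, and was not called.

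Within each male group, Elovl3 libraries fell into a higher and a lower set with a gap between them, the higher set being replicates 1 to 3 in both groups. Dbp, a transcription factor gene that follows the circadian clock, was compared after these values had been seen. It measured 35.4, 73.7 and 61.8 CPM in Male WT replicates 1 to 3 and 111, 85.5 and 80.6 in replicates 4 to 6. In Male KO, Dbp measured 20.3, 19.2 and 14.8 CPM in replicates 1 to 3 and 62.1, 78.6 and 77.5 in replicates 4 to 6. In both male groups the 3 libraries highest for Elovl3 were thus the 3 lowest for Dbp. In Female KO, Dbp measured 28.8, 32.7 and 23.8 CPM in replicates 1 to 3 and 37.8, 101 and 90.9 in replicates 4 to 6. Replicates 1 to 3 were thus the lowest for Dbp there too, but Elovl3 did not divide between these sets in Female KO. In Female WT, Dbp measured 18.9, 70.9, 85.3, 75.0 and 89.8 CPM in replicates 1 to 5. Replicate 3 thus lay above replicate 4 there, and Dbp did not divide these sets. The part of the circadian clock in the Elovl3 spread was not tested. The labels give no time of collection. Division of replicates 1 to 3 from 4 to 6, a comparison made after seeing these values, was found for 9 of the 35 tested genes among the Female KO libraries, 14 among Male WT and 7 among Male KO, by scaled log2 CPM. Over all genes tested it was found for 18.6%, 17.3% and 16% in those groups. Female WT, with 5 libraries, was left out of this comparison. Thrsp alone of the 35 divided in all 3 groups in the same direction, as did 1.35% of all genes tested, and was lower in replicates 1 to 3. The labels do not say what the numbers mark.

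The other elongases were not called in any contrast. Elovl5 and Elovl6, which act on polyunsaturated chains and on palmitate, had male against female log2 differences in WT of -0.40 (SE 0.17) and -0.39 (SE 0.18), neither of them called. Elovl1 and Elovl2 had 0.36 (SE 0.15) and -0.16 (SE 0.15). None of the 5 elongases was called between lines.

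The desaturases had lower point estimates in KO females, with none called. Scd1, the stearoyl-CoA desaturase that introduces the first double bond, measured 3589, 2508, 4384, 2085 and 1144 CPM in Female WT. In Female KO it ran from 831 through 1589.7 to 2728 CPM, in Male WT from 1193 through 1608 to 2935, and in Male KO from 662 through 999 to 2788. Female WT held the highest values, but its lowest library lay below the Female KO median. The Scd1 log2 difference between lines was -0.71 (95% interval -1.40 to -0.03, edgeR adjusted p = 0.545) in females and -0.41 (95% interval -1.06 to 0.25) in males. Scd2, a related desaturase expressed mostly outside hepatocytes, had group means between 3.14 and 4.88 CPM. Fads1 and Fads2, the delta-5 and delta-6 desaturases of polyunsaturated fatty acids, differed between lines by -0.11 (SE 0.18) and -0.30 (SE 0.23) in females and by -0.22 (SE 0.17) and -0.38 (SE 0.22) in males. Between the sexes, Fads1 had a log2 difference in KO of -0.54 (SE 0.17) with an edgeR adjusted p of 0.0513, just outside the threshold. Under other settings Fads1 was called in KO by DESeq2, by limma-voom, with no filter on low counts and with a replicate block. It was not called with other scalings or with only the groups of the contrast. Acacb in WT was likewise near the threshold, at -1.02 (SE 0.32) and an edgeR adjusted p of 0.0656. It was called in WT by limma-voom, with no filter and with only the groups of the contrast, and not by DESeq2.

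Of the regulators, Srebf1 had means in the WT line of 44.5 ± 7.4 CPM (SD, n = 5) in females and 41.7 ± 4.5 (SD, n = 6) in males. In the KO line they were 47.1 ± 19.6 (SD, n = 6) in females and 34.3 ± 9.7 (SD, n = 6) in males. It differed between lines by 0.10 (SE 0.19) in females and -0.19 (SE 0.18) in males. Thrsp, the lipogenesis-linked Spot 14 gene, spread from 369 to 844 CPM in Female WT and from 392 to 2584 in Male KO, and was not called in any contrast. Pparg, the nuclear receptor of adipogenesis, was below the filter. It had 23 and 25 counts in all in the WT and KO females, and 13 and 2 in the WT and KO males. It was at 0 in 4 of the 6 Male KO libraries and 1 of the 6 Male WT libraries, and was not tested with the filter. With no filter, edgeR called it by sex in KO.

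Across libraries, Srebf1 and the 16 supply, synthesis, elongation and desaturation genes were compared as deviations of log2 CPM from each library's group mean. Pearson's r was positive for 14 of the 16, with a median of 0.38. Fasn had the highest, at r = 0.64 over 23 libraries (permutation p = 0.00233, adjusted over the 16 relations 0.0373), with Spearman's rho of 0.56 (permutation p = 0.0119, adjusted 0.191). Scd1 had r = 0.57 (permutation p = 0.00506, adjusted 0.0405) and rho = 0.49 (permutation p = 0.0248, adjusted 0.198). By r 2 of the 16 relations passed, and by rho 0 passed. The libraries farthest from the Srebf1 median were Female KO replicate 2 and Male KO replicate 4. Without them r fell to 0.46 for Fasn (permutation p = 0.030) and to 0.34 for Scd1 (permutation p = 0.0888). Unlike the values by which these relations passed, those p-values are not adjusted over the 16 relations. Leaving out the libraries farthest in Srebf1 narrows its range, which by itself tends to lower r. How far the relations rest on those libraries therefore cannot be read from the fall in r. Without Male KO replicate 3, only Fasn passed by r. The points share library depth and scaling. On log2 of deposited CPM + 1, 11 of the 16 passed by r, and 2 passed when those CPM were first divided by the TMM scaling factors.

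**Figure D2:**
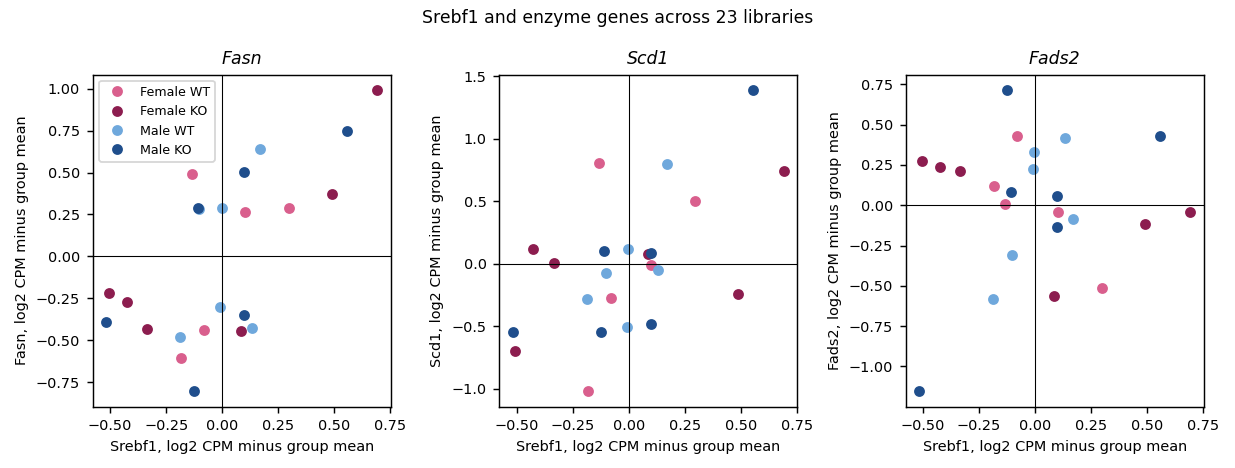
Deviation of log2 CPM from the group mean for Srebf1 (x axis) and for Fasn, Scd1 and Fads2 (y axes) in the 23 libraries, coloured by group. Fasn (r = 0.64) and Scd1 (r = 0.57) rise with Srebf1, with Female KO replicate 2 and Male KO replicate 4 at the far right, while the r of Fads2 is 0.09.

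In triglyceride assembly, Dgat2 held the largest difference in females. DGAT2 adds the last fatty acid to diglyceride. It measured 520.0, 669, 698, 782 and 594 CPM in Female WT and ran from 365 through 497 to 596 in Female KO. Only the 2 lowest Female WT libraries lay within the Female KO range. The Dgat2 log2 difference was -0.41 (SE 0.16), with an unadjusted p of 0.0189 and an edgeR adjusted p of 0.444. In males Dgat2 ran from 426 to 698 CPM in WT and from 254 to 493 in KO, a log2 difference of -0.31 (SE 0.16). Gpam, the mitochondrial acyltransferase of the first step, had a median of 140 CPM in Male WT (range 107 to 191) and of 110 CPM in Male KO (range 65.2 to 136). Its log2 difference was -0.38 (SE 0.18, unadjusted p = 0.0428, edgeR adjusted p = 0.367) in males and 0.04 (SE 0.19) in females. Without Male KO replicate 3 the Gpam value in males was -0.31 and its unadjusted p 0.098. Agpat2, of the second step, and Dgat1, the other diglyceride acyltransferase, lay within 0.10 of 0 on the log2 scale between lines in both sexes. Mogat1, a monoacylglycerol acyltransferase, had between 2 and 5 counts per group and was below the filter.

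Lipid droplet proteins showed no called difference, and several of their highest values came from 1 library. Plin5, the perilipin of oxidative tissues, averaged between 21.7 and 26.0 CPM in the 4 groups, and Plin3 between 36.9 and 41.8. Cideb, which acts in lipid loading of lipoproteins, averaged between 154 and 185 CPM. Hsd17b13, a hepatocyte droplet enzyme, differed between lines by 0.30 (SE 0.20) in females and 0.14 (SE 0.19) in males. Fitm2, an endoplasmic reticulum protein of droplet formation, had a median of 29.0 CPM in Male WT (range 24.9 to 36.8) and 22.4 in Male KO (range 20.0 to 26.0), and the ranges overlapped. Its male log2 difference was -0.29 (SE 0.14, unadjusted p = 0.0491, edgeR adjusted p = 0.379). Without Male KO replicate 3 the Fitm2 value in males was -0.30 and its unadjusted edgeR p 0.0576.

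By deposited CPM, Male KO replicate 2 was the highest of all 23 libraries for Cidea, Cidec, Plin4, Scd2 and Lipe. Cidea and Cidec encode droplet fusion proteins that are abundant in fat cells, and Plin4 a perilipin of adipocytes. Cidea reached 11.2 CPM there and at most 4.52 in any other library, Cidec 7.34 against at most 2.67, and Plin4 5.17 against at most 2.58. Scd2 reached 9.42 CPM against at most 8.77, and Lipe 18.2 against at most 14.3. In the same library Adipoq, the adiponectin gene, was at 7.34 CPM against at most 1.70 elsewhere, Plin1 at 4.84 against at most 0.729, Cfd at 73.7 against at most 12.6, and Fabp4 at 38.7 against at most 5.35. Of the 8 adipocyte markers, 7 were highest in this library, and Trarg1 was at 0 in it. Without it Cidec no longer passed the filter, and Scd2 in males went from 0.35 (SE 0.37) to -0.20 (SE 0.37) between lines. With it included, the Cidec log2 difference was 0.91 (SE 0.50) in males and was not called. The part of the adipocyte markers in these values was not tested.

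**Figure D3:**
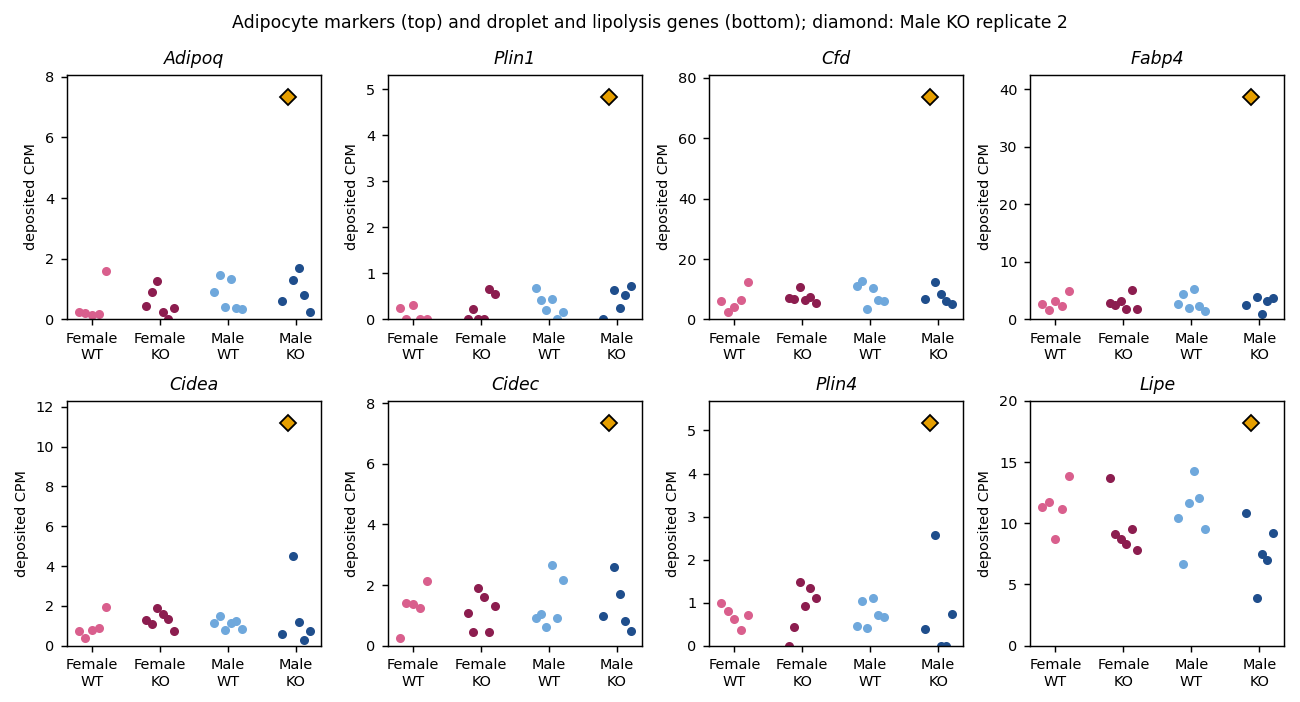
Deposited CPM in each library of 4 adipocyte markers (top row) and of Cidea, Cidec, Plin4 and Lipe (bottom row) by group, with Male KO replicate 2 drawn as an orange diamond. That library lies highest in all 8 panels, for example 7.34 CPM against at most 1.70 for Adipoq and 11.2 against at most 4.52 for Cidea.

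Plin4 and Cidea were below the filter, with 18 to 40 and 26 to 86 counts per group. Hilpda, which binds and inhibits adipose triglyceride lipase, had 26 to 41 counts per group, and Pnpla3, a droplet lipase of the same family, had at most 3.5. In Female KO Pnpla3 had 0 counts in any library.

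No lipolysis gene was called between lines. Pnpla2, which encodes adipose triglyceride lipase, ran from 86.1 through 105 to 129 CPM in Male WT and from 27.1 through 74.8 to 111 in Male KO. The lowest Pnpla2 value was that of Male KO replicate 3. Its male log2 difference was -0.43 (SE 0.17, unadjusted p = 0.0214, edgeR adjusted p = 0.317), and -0.29 (SE 0.13) without that library. G0s2, an inhibitor of the same lipase, measured 4.17, 21.7, 11.4, 15.8 and 15.7 CPM in Female WT and ran from 4.00 through 7.38 to 12.9 in Female KO. Most Female WT libraries were higher, but the lowest of them lay near the bottom of Female KO. The G0s2 log2 difference was -0.88 (95% interval -1.62 to -0.13, edgeR adjusted p = 0.468) in females and -0.08 (95% interval -0.85 to 0.69) in males. Lipe and Mgll, for hormone-sensitive lipase and monoglyceride lipase, were not called in any contrast.

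Abhd5, the activator of adipose triglyceride lipase also called CGI-58, was called by sex in the KO line. It measured 16.0, 16.3, 17.1, 16.3 and 15.5 CPM in Female WT, and ran from 15.1 through 18.4 to 21.9 in Female KO. In Male WT it ran from 16.2 through 18.5 to 23.9, and in Male KO from 19.0 through 21.9 to 26.2. Male KO held the highest levels, and overlapped with Female KO. The male against female fold in KO was 1.35 (log2 0.43, SE 0.13, edgeR adjusted p = 0.0411). In WT it was 0.30 (SE 0.13) on the log2 scale with an edgeR adjusted p of 0.239. The call in KO was lost in 10 of the 23 fits that left out 1 library each, with adjusted p-values up to 0.105. These were the fits without Female KO replicates 1, 2, 3, 5 or 6, Male WT replicate 3, or Male KO replicates 3, 4, 5 or 6. Between lines, Abhd5 differed by 0.34 (SE 0.13, unadjusted p = 0.0154, edgeR adjusted p = 0.304) in males and 0.20 (SE 0.14) in females.

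Both fatty acid uptake genes had higher point estimates in KO. Lpl, the lipoprotein lipase that frees fatty acids from circulating triglyceride, measured 9.45, 5.48, 5.11, 6.37 and 11.4 CPM in Female WT. In Female KO it measured 18.3, 31.7, 63.0, 2.07, 18.5 and 10.2 CPM in replicates 1 to 6. Female KO held the 4 highest female values and also the lowest, so the groups overlapped. The Lpl log2 difference in females was 1.65 (SE 0.51, 95% interval 0.60 to 2.71), with an unadjusted p of 0.00342 and an edgeR adjusted p of 0.268. Without Female KO replicate 3 the Lpl value was 1.12 (edgeR adjusted p = 0.525). With no filter on low counts edgeR gave Lpl an adjusted p of 1.11e-04. In males the Lpl log2 difference was 0.62 (SE 0.48). The sex by genotype interaction, the male line difference minus the female one, was -1.03 (SE 0.70) and not called. In Male WT Lpl measured 16.2, 17.3 and 14.3 CPM in replicates 1 to 3 and 5.24, 5.32 and 7.18 in replicates 4 to 6. In Male KO it measured 19.9, 35.9 and 18.1 in replicates 1 to 3 and 6.43, 5.09 and 12.9 in replicates 4 to 6. Both male groups thus divided as for Elovl3. The 35.9 CPM value was that of Male KO replicate 2, the library with high adipocyte markers. The part of those markers in the male Lpl values was not tested.

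Markers of other cell types also varied among the female libraries. The summed 8 endothelial markers ran from 135 through 143 to 160 CPM in Female WT and from 40.8 through 98.1 to 154 in Female KO. By edgeR, 3 of the 8 had an unadjusted p under 0.05 between lines in females, against 8.84% of all genes tested. The median log2 difference of the 8 was -0.39, and 0 of them were called. Of the 7 macrophage markers and the 8 stellate cell and fibroblast markers tested, 0 had an unadjusted p under 0.05 in females. Female KO replicate 4, the lowest for Lpl, was also the lowest of all libraries for the endothelial sum, at 40.8 CPM, and for the sum of the 8 macrophage markers, at 45.4 CPM. Female KO replicate 3, the highest for Lpl, had an endothelial sum of 81.4 CPM and a macrophage sum of 78.9 CPM. The sum of the 8 stellate cell and fibroblast markers ran from 169 through 196 to 239 CPM in Female WT. In Female KO it ran from 113 through 212 to 260 CPM. Its highest value of all libraries was that of Female KO replicate 3, and its lowest that of Female KO replicate 4. The part of these cell types in the Lpl values was not tested.

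**Figure D4:**
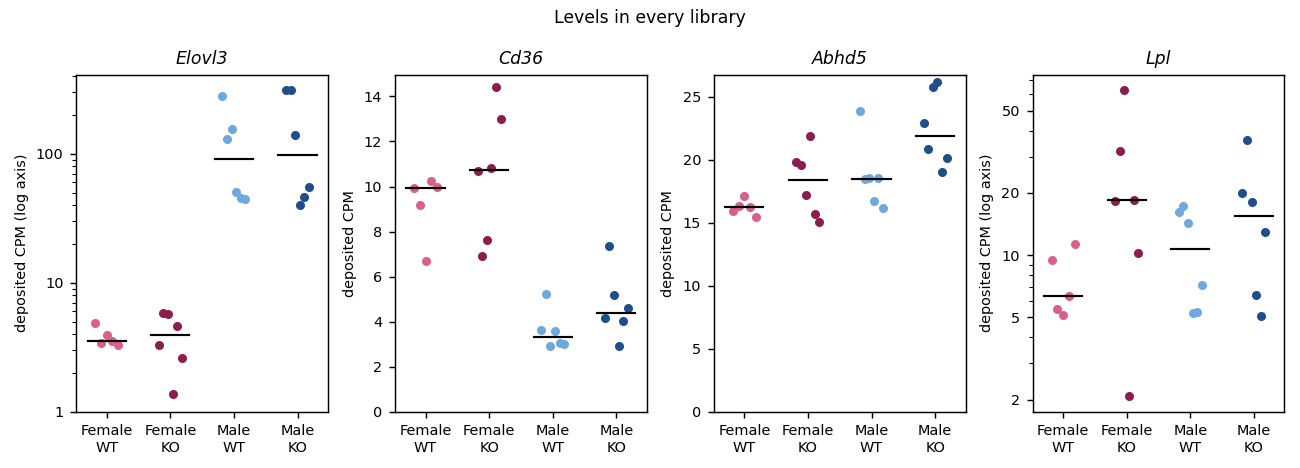
Deposited CPM of Elovl3 and Lpl (log axes) and of Cd36 and Abhd5 (linear axes) in each library by group, with a black line at the group median. Elovl3 is higher in every male library than in any female library, and Cd36 is higher in Female WT (6.71 to 10.3 CPM) than in Male WT (2.92 to 5.24 CPM).

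Cd36, the fatty acid translocase at the cell surface, was lower in males in both lines. It measured 9.94, 9.16, 6.71, 10.3 and 9.96 CPM in Female WT and ran from 6.89 through 10.8 to 14.4 in Female KO. In Male WT it ran from 2.92 through 3.32 to 5.24, and in Male KO from 2.91 through 4.38 to 7.34. The WT sexes did not overlap, and in KO the highest male library lay just above the lowest female one. Cd36 was 2.42-fold higher in females in WT (log2 -1.28 for male against female, SE 0.22, edgeR adjusted p = 2.89e-04) and 2.07-fold higher in KO (log2 -1.05, SE 0.22, edgeR adjusted p = 0.0021). The highest male values were those of Male KO replicate 2, with its adipocyte markers, and of Male WT replicate 2, with its skeletal muscle markers. Cd36 is expressed in adipocytes and muscle, and also in endothelium and macrophages. The endothelial sum ran from 135 to 160 CPM in Female WT and from 100.3 to 130.3 in Male WT, without overlap, and its KO ranges of 40.8 to 154 in females and 74.5 to 151 in males overlapped. The macrophage sum had medians of 101 CPM in Female WT and 68.7 in Male WT, and of 86.3 in Female KO and 92.5 in Male KO. The part of these cell types in the Cd36 difference was not tested. Without Male KO replicate 2 the log2 difference in KO was -1.21, and without Male WT replicate 2 the one in WT was -1.42. Between lines Cd36 differed by 0.25 (SE 0.21) in females and 0.48 (SE 0.24) in males, and was not called.

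As Cd36 is one of the genes called by sex in both lines, its RefSeq promoter on GRCm38.p6, chr5:17835847-17836146 on the minus strand, is shown with its CCAAT match, at base 56, in capitals:
Cd36 promoter: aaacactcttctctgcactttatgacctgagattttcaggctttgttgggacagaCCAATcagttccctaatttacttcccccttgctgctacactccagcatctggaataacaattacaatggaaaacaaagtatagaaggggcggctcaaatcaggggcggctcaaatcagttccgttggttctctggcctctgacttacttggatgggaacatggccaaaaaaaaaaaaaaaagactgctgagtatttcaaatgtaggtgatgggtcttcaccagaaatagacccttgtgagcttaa
The STAT-type letters TTCNNNGAA were in 8.3% of all promoters in the table and in 1 of the 46 of the listed genes, that of Lipe.

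Over the whole list, edgeR called 2 of 35 genes by sex in WT (Elovl3 higher in males, Cd36 lower) and 3 of 35 in KO (Elovl3 and Abhd5 higher, Cd36 lower). That is 5.71% of the tested genes of the list in WT, where 5.61% of all genes were called, and 8.57% in KO, where 7.44% were called. The share called was thus close to that over all genes. By direction, 2.36% of all genes were called higher and 3.25% lower in males in WT, and 3.67% and 3.77% in KO. Libraries of the sexes did not overlap for 2 of the 35 in WT (7.72% of all genes tested) and for 1 in KO (3.67% of all genes tested). The female and male genotype comparisons share no library, but they share 1 fit, with its filter, scaling and estimate of the spread. Each sex contrast also shares its libraries with the genotype contrasts. For the sex by genotype interaction, edgeR called 0 of the 35 genes and 0% of all genes tested, and DESeq2 and limma-voom also called 0 of the 35. At an unadjusted p under 0.05, 0 of the 35 passed, against 5.66% of all genes tested. The interaction was 0.31 (SE 0.82) for Elovl3, 0.23 (SE 0.31) for Cd36 and 0.13 (SE 0.19) for Abhd5, and its 95% interval lay within 2-fold for 26 of the 35 genes.

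Other genes of the same pathways were read from lists of 64 enzymes, carriers and droplet proteins and of 17 regulators. Between lines, 0 of the 58 tested of the former and 0 of the 16 tested of the latter were called in either sex by edgeR, and 4 and 10 of the 58 had an unadjusted p under 0.05 in females and males. Those are 6.9% and 17.2%, where 8.84% and 13.1% of all genes tested passed. By sex in WT, 3 of the 58 were called higher and 3 lower in males, and in KO 5 and 3, while 0 of the 16 regulators were called. The calls make up 10.3% of the 58 in WT and 13.8% in KO, beside 5.61% and 7.44% of all genes tested. Fitm1, a relative of Fitm2 best known from muscle, averaged 5.14 ± 1.58 CPM (SD, n = 5) in Female WT and 18.4 ± 5.7 (SD, n = 6) in Male WT. Its log2 difference was 1.93 in WT (edgeR adjusted p = 7.39e-06) and 1.35 in KO (edgeR adjusted p = 0.00165). It was 16.3 CPM in Male WT replicate 2, the library highest in muscle markers, and 28.1 in Male WT replicate 4, its highest. Tm6sf2, which takes part in loading lipid onto lipoproteins, averaged 70.3 ± 6.0 CPM (SD, n = 5) in Female WT and 27.8 ± 6.7 (SD, n = 6) in Male WT, a log2 difference of -1.23 (edgeR adjusted p = 3.75e-05), and -1.23 in KO (edgeR adjusted p = 3.13e-05). Pnpla7, a lysophospholipase, was higher in males by 0.68 in WT and 0.71 in KO on the log2 scale. Hsd17b12, which reduces the ketoacyl intermediate of elongation, was higher in males by 0.77 in KO (edgeR adjusted p = 2.73e-04).

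Within a group, some libraries were high or low for many of the listed genes at once. By deposited CPM, Female KO replicate 2 was the highest of its group for 15 of the 35 tested genes. Male KO replicate 3 was the lowest of its group for 18, Female WT replicate 5 for 17 and Male WT replicate 2 for 16. Male KO replicate 3 had the lowest depth and a scaling factor of 0.837, and Male WT replicate 2 the highest muscle markers. Female WT replicate 5 and Male KO replicate 3 had the highest shares of mitochondrially encoded counts of all 23 libraries, at 16.2% and 16.1%. After TMM scaling the counts were 13 for Female KO replicate 2, and 15, 12 and 12 for the others in the order given. Female KO replicate 3 was then the lowest of its group for 15. The part of depth, mitochondrial share and other tissue in these ranks was not tested.

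**Figure D5:**
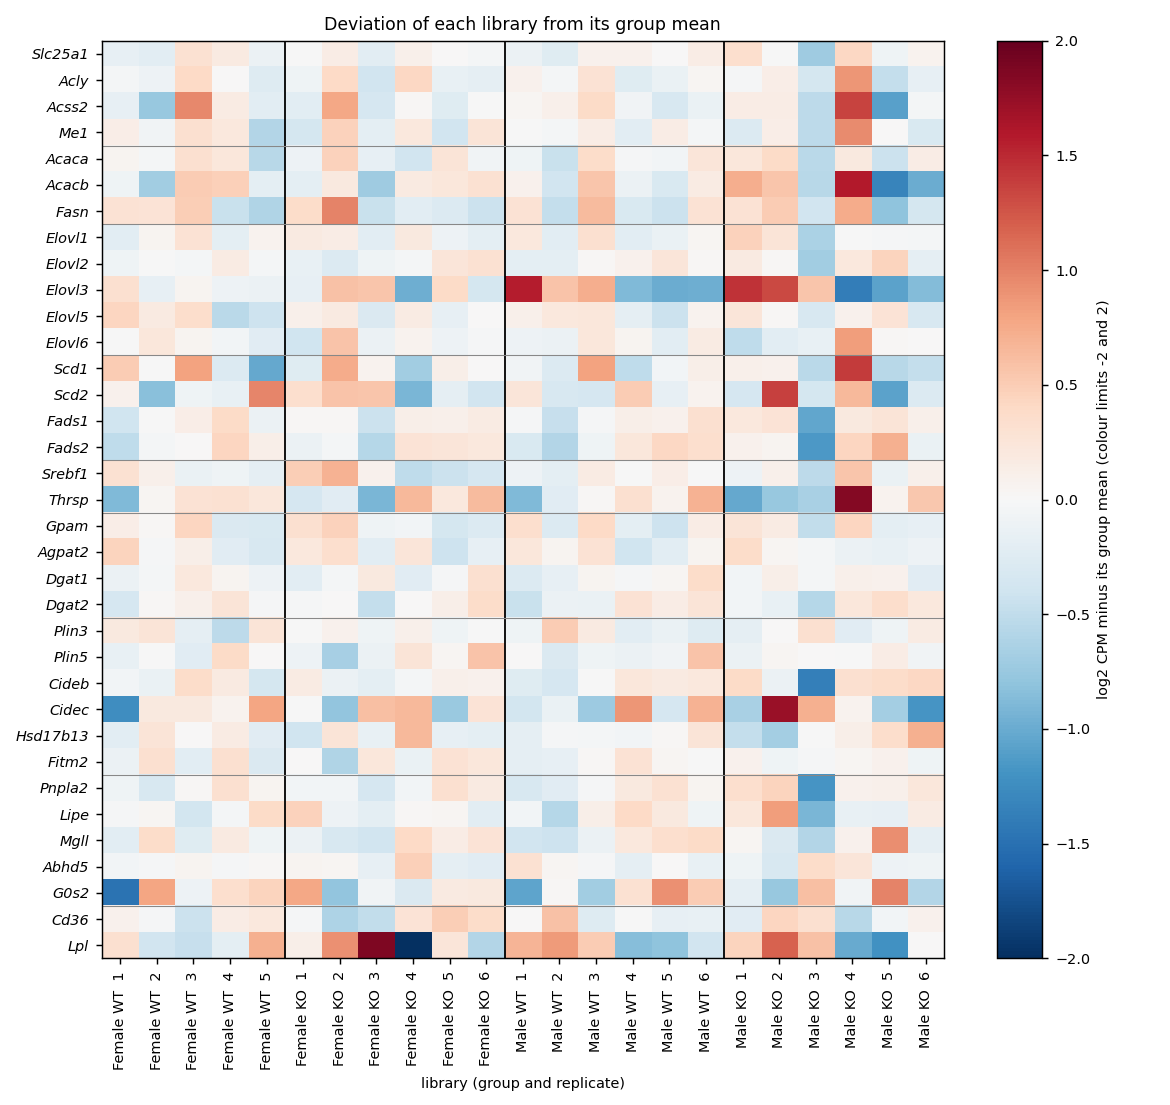
Deviation of log2 CPM from the group mean for each of the 35 tested genes (rows, in functional order) in each of the 23 libraries (columns), red for above and blue for below. On this scale Female KO replicate 2 is the highest of its group for 13 genes and Male KO replicate 3 the lowest for 15.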

How the data were processed

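PolyA RNA of 23 mouse livers was sequenced by 3' end counting, per the labels' protocols. Groups and replicate numbers came from the sample titles. The deposited table gives an expected count, which need not be whole, and a CPM value per gene and library. The submitters' processing notes list STAR 2.7.11 and, from Subread 2.1.1, featureCounts, beside FastQC 0.12.1, MultiQC 1.32, SAMtools 1.22.1 and fastp 0.24.0, and the build mm39. Their settings and the use of strand are not given in the sources used here. Between 33.7% and 55.0% of a library's counts lay in genes with fractional counts. Of the 41 listed genes, 24 had a fractional count in at least 1 library, so reads shared between genes may have been divided. The authors' CPM values are relative to totals 0.579% to 1.15% above the column sums.

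Expected counts were rounded and tested in R 4.3.3 by edgeR 4.0.16 (quasi-likelihood test, TMM scaling, filterByExpr with its defaults), in 1 fit of all 23 libraries. Adjustment ran over 11370 genes in each of 5 contrasts. Standard errors were derived from each gene's F statistic and fold change. The fit was tested on simulated data. Relations with Srebf1 used log2 CPM with a prior count of 2 and 100000 permutations within groups. Alternatives were DESeq2 1.42.0, limma 3.58.1 with sample weights, other scalings, no filter, a replicate block and leaving out each library. Replicate numbers did not meet the criterion for pairing samples. No libraries were copies: over 55 pairs within groups, chi-square per degree of freedom was at least 3.05. The labels name replicates by number only and do not say how the animals were drawn, so p-values measure only the spread between these samples, which may be technical. Every listed gene is accounted for. For genes called in any contrast, and those with an unadjusted p under 0.05 between lines, every value in Female WT and the lowest, median and highest in groups of 6 are given, in the groups that the result concerns, and of the other pathway genes up to 4 called per contrast are named. The gene list, the pathway lists and the marker lists were chosen with earlier results of these data known. Promoter sequences came from RefSeq on GRCm38.p6.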

Additional observations from a re-analysis of the deposited data

Results flagged for a closer look

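In groups of 5 or 6 libraries, 12 of 140 groups tested held a library far from its group by Dixon's criterion. For independent and normally distributed values about 1 in 20, or 7, would be flagged. The values were deposited CPM without log scaling, and the genes share libraries, so 7 is only a rough guide here. Female KO replicate 2 stood apart for Acss2 at 299.6 CPM (others 138 to 161) and for Elovl6 at 111 CPM (others 56.8 to 69.4). Male KO replicate 4 stood apart for Elovl6 at 92.1 CPM (others 39.9 to 53.1), for Scd1 at 2788 CPM (others 662 to 1344) and for Thrsp at 2584 CPM (others 392 to 1028). Male WT replicate 3 stood apart for Scd1 at 2935 CPM (others 1193 to 1739). Male KO replicate 3, the shallowest library, stood apart as low for Dgat2 at 254 CPM (others 439 to 493) and for Cideb at 49.0 CPM (others 153 to 199). Male KO replicate 2, with high adipocyte markers, stood apart for Cidec at 7.34 CPM (others 0.486 to 2.58). Single values stood apart for Lipe in Female KO replicate 1 at 13.7 CPM (others 7.80 to 9.53), for Abhd5 in Male WT replicate 1 at 23.9 CPM (others 16.2 to 18.6) and for Cd36 in Male WT replicate 2 at 5.24 CPM (others 2.92 to 3.64). The cause of these values was not tested.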

How the results depend on the processing

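Under the alternatives run, no gene that was called, or that had an unadjusted p under 0.05 between lines, changed the sign of that difference. Scd2, which was neither, went from 0.35 to -0.20 between lines in males without Male KO replicate 2. The number of listed genes called between lines in females was 0 and became 1 (Lpl) with no filter on low counts (0.201% of all genes called). It was 0 in males under every alternative, and 0 for the interaction in the fits that gave one. By sex in WT the count was 2 and ranged from 2 to 3 when each library was left out. It became 4 with only the groups of the contrast in the fit (10.2% of all genes called, against 5.61%), where Elovl6 and Acacb joined. By sex in KO the count was 3. It became 5 with no filter (3.24% of all genes called, against 7.44%), where Pparg, Fads1 and Acacb joined and Abhd5 dropped out. With limma-voom and sample weights it was also 5 (18.4%), where Fads1 and Acacb joined. It ranged from 2 to 5 when each library was left out, reaching 5 without Male KO replicate 4 (6.4%). Abhd5 in KO was not called with no filter (edgeR adjusted p = 0.194) or with only the groups of the contrast (edgeR adjusted p = 0.155). The 16 relations with Srebf1 gave 2 calls by r, 11 on log2 of deposited CPM + 1, 2 when those CPM were first divided by the TMM factors (added after seeing the data) and 1 without Male KO replicate 3. With both Male KO replicates 2 and 3 left out, an alternative chosen after seeing the data, 0 listed genes were called between lines in either sex. Same-numbered libraries of different groups had a median correlation of 0.0934 over 33 pairs, with 16 over 0.1, and 7 libraries correlated best with their own number, so the criterion for pairing was not met, although some listed genes divide replicates 1 to 3 from 4 to 6. With a replicate block the counts were 0 and 0 between lines, 2 and 4 by sex in WT and KO, and 0 for the interaction. Depth limits genes of few counts: 6 of the 41 could not be tested.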
